A study of Homo sapiens with 6 samples.

Results

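The 9 genes HLA-B, HLA-C, HLA-E, HLA-F, B2M, TAP1, TAP2, TAPBP and PSMB9, drawn by symbol from 23368 genes in the count table, cover the heavy chains of MHC class I, their light chain, the peptide transporter, the loading factor tapasin and a subunit of the immunoproteasome. RNA-seq was measured in MDA-MB231 cells, a human triple-negative breast cancer line with mesenchymal traits, after transfection of an siRNA. The first group received siL1 and the second siL2, which are different siRNAs against LSD1 (gene KDM1A), a demethylase that removes methyl groups from histone lysines. The third group, siControl, received a control siRNA. Each group had 2 libraries of total RNA, all from the same parental line with no other labelled genotype or treatment, and the time from transfection to harvest is not given in the sources used here.

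MHC class I molecules show short peptides from inside the cell to CD8 T cells. Proteasomes, including immunoproteasomes that carry interferon-inducible subunits such as PSMB9, cut proteins into peptides, and the TAP1 and TAP2 heterodimer pumps the peptides into the endoplasmic reticulum. There tapasin, the product of TAPBP, holds the transporter beside a heavy chain paired with beta-2-microglobulin until a peptide is bound. HLA-B and HLA-C are classical heavy chains, while HLA-E and HLA-F are non-classical ones that natural killer cell receptors recognise. Most of these genes answer to interferon gamma, and the classical promoters are known for a shared module read by interferon regulatory factors, NF-kappaB, RFX, CREB or ATF, NF-Y and the coactivator NLRC5.

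Promoters of 6 of the genes are shown because their matches to the shared module differ from member to member. Each sequence is the RefSeq reference of build GRCh38.p14, 250 bases before to 50 bases after an annotated start, read in the direction of the gene, and not the allele of the line itself. Capitals mark matches on either strand to an interferon-stimulated response element (ISRE-like, TTTCNNTT), the NF-kappaB consensus, the CRE half-site TGACG and the box CCAAT. The HLA-B window is chr6:31357130-31357429 and the HLA-C window chr6:31272043-31272342, both on the minus strand. The B2M window is chr15:44711267-44711566 on the plus strand, the TAPBP window chr6:33314029-33314328 on the minus strand. The TAP1 window, the first of 2 annotated starts, is chr6:32853655-32853954 on the minus strand, and the PSMB9 window is chr6:32853942-32854241 on the plus strand.
HLA-B: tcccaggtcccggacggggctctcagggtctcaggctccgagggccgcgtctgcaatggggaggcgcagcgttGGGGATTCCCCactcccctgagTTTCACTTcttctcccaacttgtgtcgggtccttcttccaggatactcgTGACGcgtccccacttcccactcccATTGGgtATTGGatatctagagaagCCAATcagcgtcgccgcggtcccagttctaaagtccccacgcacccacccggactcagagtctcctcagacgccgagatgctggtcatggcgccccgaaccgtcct
HLA-C: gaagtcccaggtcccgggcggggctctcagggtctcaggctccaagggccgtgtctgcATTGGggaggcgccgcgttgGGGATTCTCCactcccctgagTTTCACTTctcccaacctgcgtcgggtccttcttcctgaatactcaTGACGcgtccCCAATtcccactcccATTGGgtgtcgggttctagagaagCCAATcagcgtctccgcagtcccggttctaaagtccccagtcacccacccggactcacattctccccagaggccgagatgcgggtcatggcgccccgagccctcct
B2M: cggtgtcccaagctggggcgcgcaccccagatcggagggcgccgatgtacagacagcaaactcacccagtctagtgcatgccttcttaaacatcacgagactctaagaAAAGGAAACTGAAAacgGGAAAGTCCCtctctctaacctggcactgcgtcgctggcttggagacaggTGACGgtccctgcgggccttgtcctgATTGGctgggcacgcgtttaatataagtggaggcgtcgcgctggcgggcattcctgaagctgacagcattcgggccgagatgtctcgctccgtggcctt
TAPBP: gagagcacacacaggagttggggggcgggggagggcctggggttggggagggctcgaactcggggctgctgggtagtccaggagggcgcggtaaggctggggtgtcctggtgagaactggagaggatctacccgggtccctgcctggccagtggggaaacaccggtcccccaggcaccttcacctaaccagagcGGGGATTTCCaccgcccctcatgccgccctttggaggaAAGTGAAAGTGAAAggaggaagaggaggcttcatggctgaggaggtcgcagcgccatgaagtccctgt
TAP1: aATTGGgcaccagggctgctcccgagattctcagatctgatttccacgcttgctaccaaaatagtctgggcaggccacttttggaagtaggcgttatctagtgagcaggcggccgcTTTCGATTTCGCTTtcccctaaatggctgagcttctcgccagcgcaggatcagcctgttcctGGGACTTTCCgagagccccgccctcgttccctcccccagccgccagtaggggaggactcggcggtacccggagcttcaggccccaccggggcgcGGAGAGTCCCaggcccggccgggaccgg
PSMB9: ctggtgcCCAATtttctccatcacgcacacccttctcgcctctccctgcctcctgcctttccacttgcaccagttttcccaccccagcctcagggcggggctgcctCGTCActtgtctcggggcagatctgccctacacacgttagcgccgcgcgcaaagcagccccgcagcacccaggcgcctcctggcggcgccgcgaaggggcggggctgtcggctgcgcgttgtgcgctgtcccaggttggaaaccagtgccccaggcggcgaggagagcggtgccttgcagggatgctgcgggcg

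The HLA-B and HLA-C windows were 88.5% identical, with 269 of 304 aligned positions the same. In HLA-B the NF-kappaB match began 177 bases before the start, the ISRE-like match lay from -155 to -148 and the CRE half-site from -106 to -102, with 3 CCAAT matches after it. HLA-C held its NF-kappaB match from -172 to -163, the ISRE-like match from -151 to -144 and the CRE half-site from -105 to -101. The B2M window had the same kinds of match with the ISRE-like letters overlapping each other on the reverse strand from -142 to -129, upstream of the NF-kappaB match. TAPBP carried its overlapping ISRE-like letters close to the start, from -18 to -5, and TAP2 from -62 to -49. In HLA-B the NF-kappaB letters overlapped each other on both strands.

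Of the 8 members with a window, 7 held an ISRE-like match, against 22.8% of 35116 promoter windows of the same length. PSMB9 was the member with none in these 300 bases. The NF-kappaB consensus was found in 5 of the 8 (5.91% of all windows), the CRE half-site in 5 (24.6%) and CCAAT in 6 (34.6%). TAP1 and PSMB9 are transcribed away from each other from starts 488 bases apart, and their windows share 13 bases at the far ends. These are matches of letters in reference windows, without a measurement of binding.

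**Figure D1:**
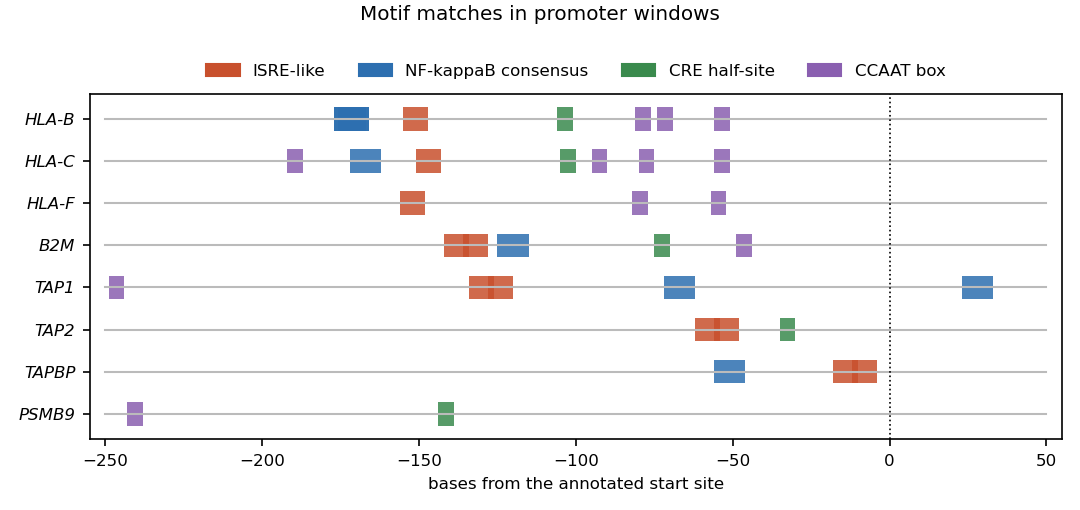
Positions of motif matches in the promoter windows of 8 genes, in bases from the annotated start site (x axis, dotted line at 0), with genes down the page and motif kinds by colour. HLA-B, HLA-C and B2M show NF-kappaB, ISRE-like, CRE and CCAAT matches together, while PSMB9 shows a CRE half-site and a CCAAT match.

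Total counts were between 22047738 and 26765079 a library, with between 15624 and 16065 genes detected. A count of 3 came to 0.112 to 0.136 CPM (counts per 1000000). KDM1A had 27.7 and 28.1 CPM in siL1 libraries and 17.4 and 18.1 CPM in siL2 libraries, against 158 and 165 CPM in siControl libraries. Its log2 change was -2.53 with siL1 and -3.19 with siL2 over siControl, and -0.66 for siL2 over siL1 (adjusted p = 4.36e-06), so the siRNAs left different amounts of the target's RNA. VIM, CD44, EGFR and KRT18 were present, as known for this line, whereas ESR1, PGR and CDH1 were near 0. ERBB2 and EPCAM, taken as low in this line, were present, with ERBB2 at 46.6 to 59.8 and EPCAM at 9.34 to 12.6 CPM over the 6 libraries. A list of 12 genes held MHC class II genes, the invariant chain CD74 and the activator CIITA. Of these, 5 including HLA-DRA and HLA-DRB1 had no count in any library, and all 12 summed to between 0.69 and 1.62 CPM. Of 12 blood cell markers, CD68 was the one with enough counts to test, and PTPRC, the pan-leukocyte marker, reached at most 0.041 CPM. CD68 had 223 and 206 CPM in siL1 libraries and 268 and 272 CPM in siL2 libraries, against 213 and 223 CPM in siControl libraries. By the edgeR test its log2 change was -0.02 with siL1 (adjusted p = 0.757) and 0.31 with siL2 (adjusted p = 8.31e-05). In bulk RNA a smaller share of cells with a transcript and less RNA per cell cannot be told apart.

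All 9 members had enough counts to be tested. An adjusted p is from edgeR's quasi-likelihood test with Benjamini-Hochberg adjustment over 13322 genes, and rose or fell is written where it is under 0.05. With siL1, 4 members rose (HLA-B, HLA-C, B2M and TAPBP) against a background of 24.7% of all genes tested, and 2 fell (HLA-E and PSMB9) against 25.7%. With siL2, 3 members rose (HLA-C, HLA-E and B2M) against 22.6%, and 3 fell (TAP1, TAP2 and PSMB9) against 23.3%. HLA-C and B2M were higher and PSMB9 lower with both siRNAs, which share the siControl libraries. The direct test of siL2 against siL1 gave 1 member higher (HLA-E, background 23.2%) and 5 lower (HLA-B, HLA-C, TAP1, TAP2 and TAPBP, background 23.7%). The members' median log2 change was 0.32 with siL1, 0.01 with siL2 and -0.22 for siL2 over siL1, beside medians over all genes tested of -0.0139, -0.0036 and 0.00019. The siL1 median was the value of HLA-F, a gene of few counts. Without HLA-F it was 0.18, without siL1 replicate 1 it was 0.11 and without siControl replicate 2 it was 0.19. Since so many genes were called in each direction, the counts alone do not set the 9 genes apart from the rest.

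**Figure D2:**
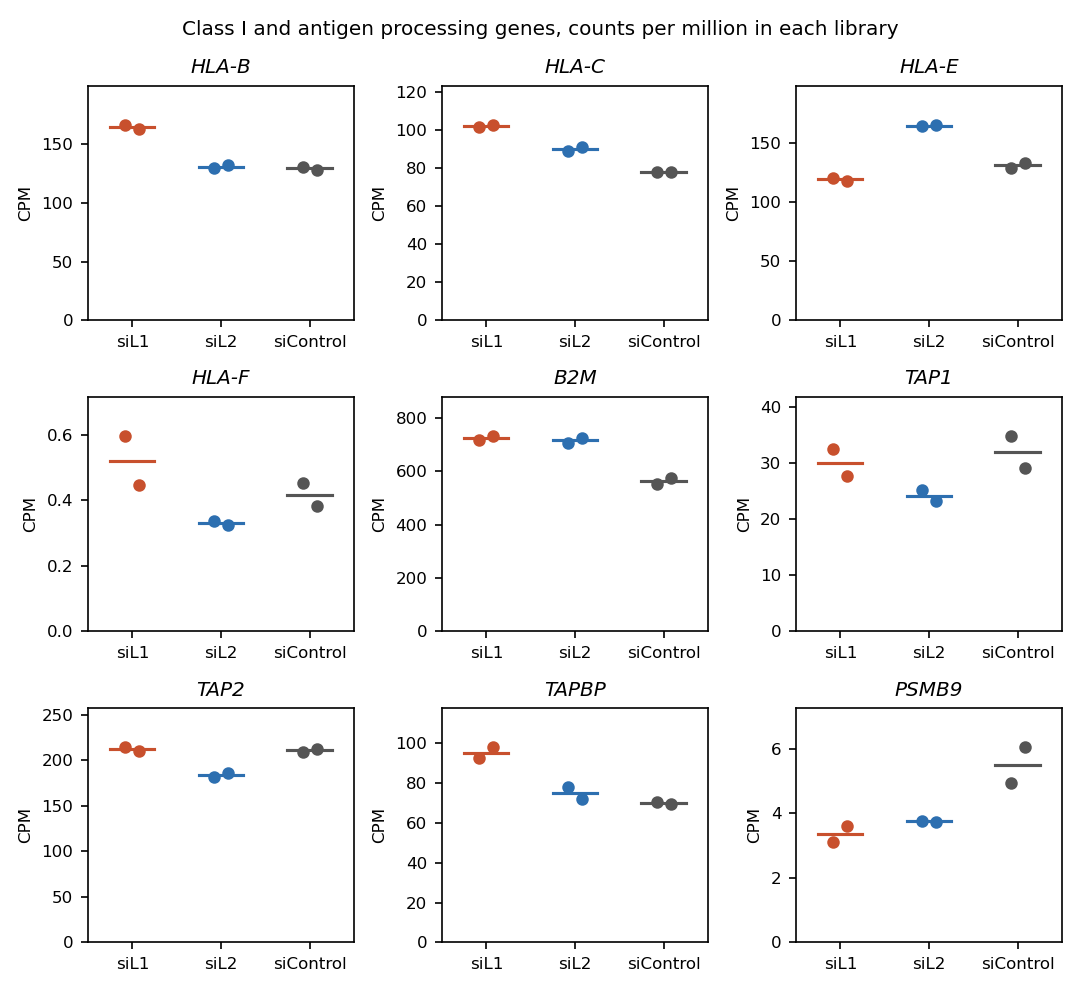
CPM of each of the 9 genes (y axis, from 0) in the 2 libraries of siL1, siL2 and siControl (points), with the group mean as a line. B2M is high with both LSD1 siRNAs, HLA-B and TAPBP with siL1, and HLA-E with siL2, while PSMB9 is lowest with siL1 and highest in siControl.

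HLA-B, the heavy chain that shows the most allelic variation, had 166 and 163 CPM in siL1 libraries and 130 and 132 CPM in siL2 libraries, against 131 and 128 CPM in siControl libraries. Both siL1 libraries stood above the other 4, and siL2 overlapped siControl. HLA-B rose 1.28-fold with siL1 (log2 0.35, SE 0.040, adjusted p = 1.28e-05), and its change with siL2 was 0.01 (SE 0.041, adjusted p = 0.815). siL2 was below siL1 by a tested log2 difference of -0.34 (adjusted p = 2.04e-05).

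HLA-C, which also serves as a ligand of killer immunoglobulin-like receptors, had 101 and 103 CPM under siL1 and 89.0 and 90.9 CPM under siL2, against 78.1 CPM in each siControl library. The 3 groups did not overlap, with siL1 highest and siControl lowest. It rose 1.31-fold with siL1 (log2 0.39, SE 0.045, adjusted p = 1.43e-05) and 1.15-fold with siL2 (log2 0.20, SE 0.045, adjusted p = 0.00291). The difference of siL2 from siL1 was -0.19 (adjusted p = 0.00346).

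HLA-E, which presents leader peptides of the other class I chains to the NKG2A receptor, took another course. It had 120 and 118 CPM in siL1 libraries and 164 and 165 CPM in siL2 libraries, against 129 and 133 CPM in siControl libraries, with siL2 highest, siL1 lowest and no overlap between groups. HLA-E rose 1.25-fold with siL2 (log2 0.32, SE 0.040, adjusted p = 3.14e-05) and fell to 0.912 of the siControl level with siL1 (log2 -0.13, SE 0.041, adjusted p = 0.0165). siL2 exceeded siL1 by 0.46 (adjusted p = 1.84e-06), the largest difference between the siRNAs among the 9 genes that passed the test. The fall with siL1 lost its call with DESeq2 (adjusted p = 0.0804), without siControl replicate 2 (adjusted p = 0.0998) and without siL1 replicate 2 (adjusted p = 0.0800).

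Relative to the classical members, HLA-E counts were 0.450 and 0.443 of the HLA-B and HLA-C sum with siL1 and 0.749 and 0.739 with siL2, against 0.618 and 0.645 in siControl. The ratio was lowest in both siL1 libraries and highest in both siL2 libraries.

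HLA-F, a non-classical chain, was near the limit of detection. It had 14 and 11 counts with siL1 and 9 and 8 counts with siL2, against 10 and 9 counts in siControl. Its log2 changes of 0.32 with siL1 (SE 0.40, adjusted p = 0.553) and -0.33 with siL2 (SE 0.44, adjusted p = 0.591) did not pass, and a difference was not detectable at this depth.

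Class I heavy chains are close paralogs, and how reads matching several of them were counted is not given in the sources used here, so their separate levels are uncertain. Windows of 50 bases were compared in GENCODE release 29 transcripts. Those found in another class I gene made up 2.54% of HLA-B, 6.39% of HLA-C, 4.66% of HLA-E and 1.51% of HLA-F. The windows came from each gene's longest reference transcript, not from the alleles of the line. Windows alike apart from mismatches were not counted. With these 4 genes summed into 1 feature, an alternative chosen after seeing the data, the log2 change was 0.19 with siL1 (SE 0.034, adjusted p = 0.000392) and 0.18 with siL2 (SE 0.034, adjusted p = 0.000705), and siL2 over siL1 gave -0.01 (adjusted p = 0.798).

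B2M, the light chain needed by every class I heavy chain, was the most abundant of the 9 genes. It had 719 and 733 CPM in siL1 libraries and 708 and 724 CPM in siL2 libraries, against 553 and 576 CPM in siControl libraries. All 4 libraries with LSD1 siRNA stood above both siControl libraries. B2M averaged 726 ± 9.63 CPM under siL1 and 716 ± 11.3 CPM under siL2, against 565 ± 16.3 CPM in siControl (SD, n = 2 each). The rise was 1.29-fold with siL1 (log2 0.37, SE 0.035, adjusted p = 2.60e-06) and 1.27-fold with siL2 (log2 0.34, SE 0.035, adjusted p = 5.87e-06). The difference between the siRNAs was -0.03 (SE 0.035, adjusted p = 0.533).

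The count ratio of the classical members to B2M set siL2 apart. HLA-B and HLA-C together over B2M came to 0.372 and 0.363 with siL1 and 0.309 and 0.308 with siL2, against 0.377 and 0.358 in siControl. siL1 overlapped siControl, and both siL2 libraries were lower.

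**Figure D3:**
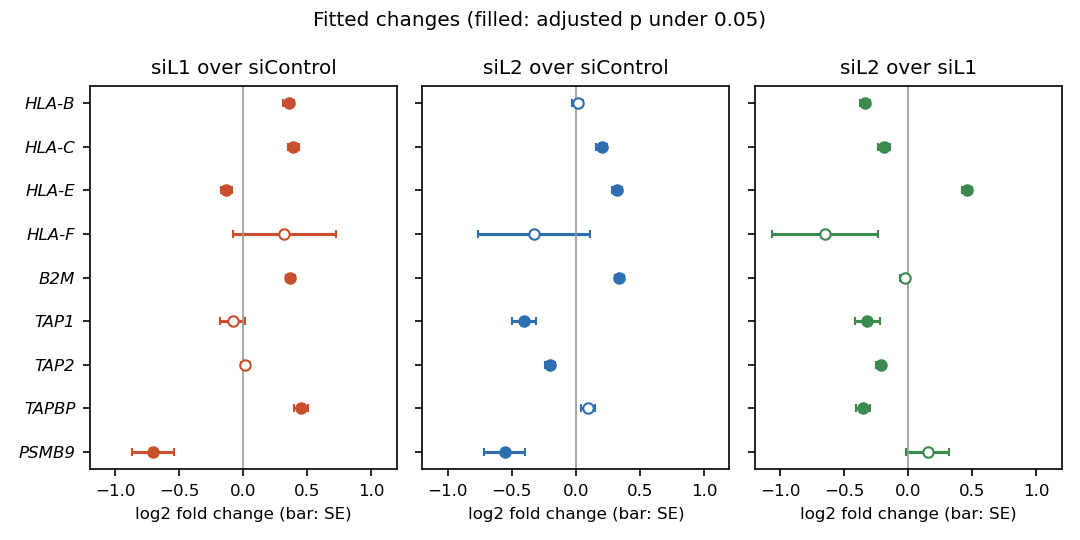
Fitted log2 fold changes of the 9 genes (x axis, points with SE bars) for siL1 over siControl, siL2 over siControl and siL2 over siL1, filled where the adjusted p is under 0.05. B2M lies at 0.37 and 0.34 over siControl with no call between the siRNAs, and HLA-E is the gene with a filled point above 0 for siL2 over siL1.

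TAPBP encodes tapasin, which bridges the heavy chain to the peptide transporter and edits the bound peptide. It had 92.4 and 98.1 CPM in siL1 libraries and 78.2 and 71.9 CPM in siL2 libraries, against 70.6 and 69.6 CPM in siControl libraries. Both siL1 libraries were the highest, and the siL2 libraries lay above siControl by little beside their own spread. TAPBP rose 1.36-fold with siL1 (log2 0.45, SE 0.055, adjusted p = 2.47e-05), the largest rise among the members. Its change with siL2 was 0.09 (SE 0.056, adjusted p = 0.187), and siL2 was below siL1 by a log2 difference of -0.35 (adjusted p = 0.000181).

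Chaperones of the loading step were set beside TAPBP. Of 11 genes for folding and loading in the endoplasmic reticulum, 5 rose and 0 fell with siL1 (24.7% and 25.7% over all genes tested), and 4 rose and 0 fell with siL2 (22.6% and 23.3%), with median log2 changes of 0.08 and 0.04. P4HB, a protein disulphide isomerase, rose by a log2 change of 0.30 with siL1 (adjusted p = 8.96e-06) and 0.13 with siL2 (adjusted p = 0.00659). CANX, the lectin chaperone calnexin that holds new heavy chains, rose by 0.25 and 0.12, and PDIA3, the isomerase that pairs with tapasin, by 0.19 and 0.15 in the same order. CALR, the soluble lectin chaperone calreticulin, rose by 0.12 with siL1 and 0.21 with siL2. BCAP31, an export receptor for class I, rose by 0.18 with siL1 and had a change of 0.04 with siL2 (adjusted p = 0.521). Leaving out siL1 replicate 1 ended the siL1 call of CALR (adjusted p = 0.0619), leaving out siControl replicate 1 the siL2 call of PDIA3 (adjusted p = 0.0561), and leaving out siL2 replicate 2 that of CANX (adjusted p = 0.0642).

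TAP1, the first subunit of the transporter, had 32.5 and 27.7 CPM in siL1 libraries and 25.2 and 23.2 CPM in siL2 libraries, against 34.8 and 29.2 CPM in siControl libraries. The siL2 libraries were the lowest, and siL1 overlapped siControl. TAP1 fell to 0.755 of the siControl level with siL2 (log2 -0.41, SE 0.097, adjusted p = 0.00403), and its change with siL1 was -0.08 (SE 0.095, adjusted p = 0.489). The difference of siL2 from siL1 was -0.32 (adjusted p = 0.0155). Without siControl replicate 1 the siL2 change was -0.27 (adjusted p = 0.0538), and the difference between the siRNAs lost its call without siL1 replicate 1 (adjusted p = 0.162) or siL2 replicate 2 (adjusted p = 0.0753).

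TAP2, the second subunit, had 215 and 210 CPM in siL1 libraries and 181 and 186 CPM in siL2 libraries, against 209 and 213 CPM in siControl libraries. siL2 again stood below the other groups, which overlapped. TAP2 fell to 0.870 of siControl with siL2 (log2 -0.20, SE 0.038, adjusted p = 0.000823), with a change of 0.02 for siL1 (adjusted p = 0.747) and a difference between the siRNAs of -0.22 (adjusted p = 0.000464). By count, TAP1 was 0.151 and 0.132 of TAP2 with siL1 and 0.139 and 0.125 with siL2, against 0.167 and 0.137 in siControl, so the groups overlapped in this ratio.

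PSMB9, the interferon-inducible subunit that replaces PSMB6 in immunoproteasomes, moved against B2M and HLA-C. It had 3.11 and 3.61 CPM in siL1 libraries and 3.77 and 3.73 CPM in siL2 libraries, against 4.94 and 6.05 CPM in siControl libraries. All 4 libraries with LSD1 siRNA were below both siControl libraries. PSMB9 averaged 3.36 ± 0.358 CPM under siL1 and 3.75 ± 0.0279 CPM under siL2, against 5.50 ± 0.784 CPM in siControl (SD, n = 2 each). It fell to 0.613 of siControl with siL1 (log2 -0.71, SE 0.16, adjusted p = 0.00285) and to 0.680 with siL2 (log2 -0.56, SE 0.16, adjusted p = 0.0113). siL2 over siL1 was 0.15 (adjusted p = 0.499). The siL2 call was lost with DESeq2 (adjusted p = 0.0823) and without siControl replicate 2 (log2 -0.40, adjusted p = 0.127).

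The changes of the other inducible subunits did not pass the test. PSMB8 had 36.9 and 35.4 CPM under siL1 and 31.5 and 32.0 CPM under siL2, against 32.5 and 33.1 CPM in siControl. Its log2 changes were 0.14 (adjusted p = 0.0709) and -0.05 (adjusted p = 0.545). PSMB10 had 12.2 and 12.1 CPM under siL1 and 10.0 and 12.1 CPM under siL2, against 9.66 and 10.4 CPM in siControl, with changes of 0.28 (adjusted p = 0.0609) and 0.13 (adjusted p = 0.368). With upper quartile scaling the siL1 rises of PSMB8 (adjusted p = 0.0399) and PSMB10 (adjusted p = 0.0439) passed. PSMB10 also passed when siL1 and siControl were fitted without siL2 (adjusted p = 0.0386), but not with DESeq2 (adjusted p = 0.172). The count ratio of PSMB9 to PSMB6 was 0.0108 and 0.0120 with siL1 and 0.0139 and 0.0131 with siL2, against 0.0183 and 0.0211 in siControl. In this ratio the LSD1 siRNAs did not overlap siControl. PSMB8 to PSMB5 came to 0.1785 and 0.1684 with siL1 and 0.156 and 0.1476 with siL2, against 0.1613 and 0.1559 in siControl. PSMB10 to PSMB7 came to 0.0636 and 0.0631 with siL1 and 0.0574 and 0.0691 with siL2, against 0.0551 and 0.0543 in siControl. Both were higher with siL1 than in siControl without overlap. With siL2 the PSMB8 ratio overlapped siControl and the PSMB10 ratio was above it. Among 9 catalytic and regulatory proteasome genes 1 fell with each siRNA and 0 rose, against shares over all genes tested of 25.7% lower and 24.7% higher with siL1 and 23.3% and 22.6% with siL2. That gene was PSME3, a nuclear proteasome activator, at -0.16 with siL1 and -0.16 with siL2. PSME1 and PSME2, the interferon-inducible activator subunits, did not pass. Of 11 genes of the constitutive core, 1 rose and 1 fell with siL1, and 1 rose and 2 fell with siL2, including PSMB1 at -0.28.

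Of 10 peptide trimming genes, 2 rose and 1 fell with siL1, and 2 rose and 2 fell with siL2, close to the shares over all genes tested (24.7% and 25.7% with siL1, 22.6% and 23.3% with siL2). HM13, the signal peptide peptidase that frees leader peptides, had 346 and 351 CPM under siL1 and 293 and 291 CPM under siL2, against 270 and 272 CPM in siControl. It rose by 0.37 with siL1 and 0.10 with siL2 (adjusted p = 0.0300), a call lost with DESeq2 (adjusted p = 0.0596) and without either siL2 or either siControl library. ERAP1, the aminopeptidase that trims peptides in the endoplasmic reticulum, rose by 0.27 with siL1 (adjusted p = 0.0102, with 0.0922 without siL1 replicate 2 and 0.0536 without siControl replicate 2), with 0.10 for siL2 (adjusted p = 0.309). BLMH, a cytosolic aminopeptidase, fell with siL1 by a log2 change of -0.28, and its change with siL2 was -0.06 (adjusted p = 0.393).

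Genes of 14 further class I heavy chains and related proteins were set beside the members. Of 12 tested, 6 rose and 0 fell with siL1 (24.7% and 25.7% over all genes tested), and 4 rose and 1 fell with siL2 (22.6% and 23.3%), with median log2 changes of 0.38 and 0.20. HFE, a B2M partner in iron control, had 10.1 and 10.3 CPM under siL1 and 12.9 and 13.8 CPM under siL2, against 7.53 and 7.79 CPM in siControl. It rose by 0.42 (adjusted p = 0.00648) and 0.79 (adjusted p = 4.83e-05). FCGRT, the heavy chain of the neonatal Fc receptor, also pairs with B2M and rose by 1.49 with siL1 (adjusted p = 0.000537), from low levels of 2.21 and 2.23 CPM against 0.998 and 0.593 CPM in siControl. Its siL2 change was 0.58 (adjusted p = 0.138). MR1, which presents vitamin metabolites to T cells, rose by 0.94 with siL2 (adjusted p = 0.00452), with 0.22 for siL1 (adjusted p = 0.495).

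The stress ligands of the NKG2D receptor did not move as a block with siL2. With siL1, MICA, ULBP2 and ULBP3 rose and MICB did not pass. MICA had 63.5 and 64.1 CPM under siL1 and 69.2 and 68.1 CPM under siL2, against 58.0 and 57.2 CPM in siControl. It rose by 0.25 with siL2 (adjusted p = 0.00123) and by 0.15 with siL1 (adjusted p = 0.0240), a call lost with DESeq2 (adjusted p = 0.0783) and without either siL1 or either siControl library. MICB had 59.7 and 62.1 CPM under siL1 and 47.1 and 46.4 CPM under siL2, against 66.7 and 60.4 CPM in siControl. It fell with siL2 at a log2 change of -0.45 (adjusted p = 6.55e-05), and its siL1 change was -0.06 (adjusted p = 0.463). ULBP2 had 16.5 and 15.9 CPM under siL1 and 12.3 and 10.5 CPM under siL2, against 13.7 and 10.9 CPM in siControl. It rose by 0.40 with siL1 (adjusted p = 0.0124), with -0.11 for siL2 (adjusted p = 0.478). ULBP3 rose by 0.42 with siL1 (adjusted p = 0.00731, with 0.0525 without siL1 replicate 2 and 0.0542 without siControl replicate 2), with -0.14 for siL2 (adjusted p = 0.348).

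**Figure D4:**
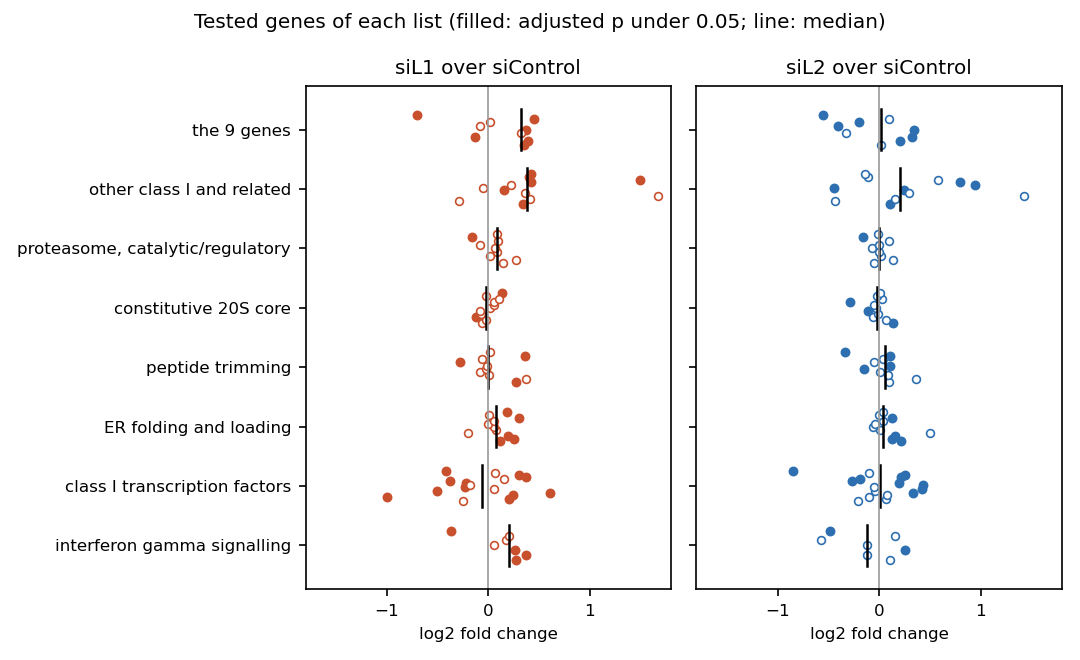
Log2 fold changes (x axis) of the tested genes in the members and 7 pathway lists for siL1 over siControl and siL2 over siControl, filled where the adjusted p is under 0.05, with each list's median as a line. The proteasome lists lie close to 0, and the transcription factors hold filled points on both sides.

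Of 16 known regulators of class I transcription, 5 rose and 6 fell with siL1 (24.7% and 25.7% over all genes tested), and 6 rose and 3 fell with siL2 (22.6% and 23.3%), with medians of -0.06 and 0.01. IRF1, an activator that binds the response element marked above, had 20.5 and 21.6 CPM under siL1 and 16.8 and 18.1 CPM under siL2, against 12.7 and 14.9 CPM in siControl. It rose by 0.61 with siL1 (adjusted p = 0.000177) and by 0.33 with siL2 (adjusted p = 0.0138, with 0.0825 without siL2 replicate 2 and 0.131 without siControl replicate 1). NFKB1, a subunit of NF-kappaB, had 55.3 and 59.8 CPM under siL1 and 42.3 and 43.5 CPM under siL2, against 76.9 and 77.7 CPM in siControl. It fell at a log2 change of -0.42 with siL1 (adjusted p = 4.91e-05) and -0.85 with siL2 (adjusted p = 1.29e-07).

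RFXAP, a subunit of the RFX complex, had 4.08 and 4.34 CPM under siL1 and 8.26 and 7.55 CPM under siL2, against 8.16 and 8.72 CPM in siControl. It fell at a log2 change of -0.998 with siL1 (adjusted p = 3.97e-05), and its siL2 change was -0.10 (adjusted p = 0.521). The other RFX subunits listed, RFX5 and RFXANK, rose by 0.20 (adjusted p = 0.00881) and 0.24 (adjusted p = 0.0121) with siL1. With siL2 they were at 0.07 (adjusted p = 0.33) and 0.08 (adjusted p = 0.404). NFYB, a subunit of the CCAAT-binding NF-Y, fell with both, at -0.38 and -0.27. The NF-Y subunit NFYA fell at -0.22 with siL1 (adjusted p = 0.00323) and rose by 0.20 with siL2 (adjusted p = 0.00594). NFYC was at 0.15 with siL1 (adjusted p = 0.0537) and fell at -0.19 with siL2 (adjusted p = 0.0261). STAT2 and IRF9, partners in the interferon-stimulated complex, rose by 0.43 and 0.43 with siL2, and with siL1 had changes of -0.18 (adjusted p = 0.0931) and 0.06 (adjusted p = 0.635). NLRC5, the class I transactivator, had 11.8 and 12.2 CPM under siL1 and 12.4 and 12.5 CPM under siL2, against 13.3 and 15.3 CPM in siControl. Its changes of -0.25 (adjusted p = 0.0532) and -0.21 (adjusted p = 0.0971) did not pass, although the siL1 change did without siControl replicate 1 (log2 -0.35, adjusted p = 0.0280).

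Of 7 genes for the interferon gamma receptor and its signalling, 3 rose and 1 fell with siL1 (24.7% and 25.7% over all genes tested), and 1 rose and 1 fell with siL2 (22.6% and 23.3%). The receptor subunits IFNGR1 and IFNGR2 rose by 0.27 and 0.37 with siL1, and the kinase JAK1 rose by 0.27 with siL1 and 0.26 with siL2. With siL2 IFNGR1 was at 0.11 (adjusted p = 0.111) and IFNGR2 at -0.12 (adjusted p = 0.260). PTPN2, a phosphatase that acts on this pathway, fell at -0.37 with siL1 and -0.48 with siL2. What part any of these regulators has in the members' changes was not tested.

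Levels were compared between genes as CPM per kilobase of exon in coding transcripts of GENCODE release 29. Of the 9 genes B2M came first in every group, at 302 and 308 with siL1 and 298 and 304 with siL2, against 233 and 242 in siControl. HLA-B followed. HLA-C stood at 65.3 and 66.0 with siL1, 57.3 and 58.5 with siL2 and 50.2 and 50.3 in siControl. HLA-E stood at 46.3 and 45.3 with siL1, 62.9 and 63.4 with siL2 and 49.6 and 51.1 in siControl. On this scale HLA-C was thus above HLA-E with siL1 and below it with siL2, and their siControl values overlapped. The order rests on the exon lengths used, 1554 bases for HLA-C and 2601 for HLA-E. In CPM without length HLA-E was above HLA-C in all 6 libraries. Below them came TAP2 (34.7 and 34.1 with siL1, 29.4 and 30.2 with siL2, 33.8 and 34.5 in siControl) and then TAPBP (22.0 and 23.4, 18.6 and 17.1, 16.8 and 16.6 in the same order). TAP1 stood at 10.97 and 9.38 with siL1 and 8.51 and 7.85 with siL2, against 11.8 and 9.87 in siControl. PSMB9 stood lower, at 3.25 and 3.78 with siL1 and 3.95 and 3.91 with siL2, against 5.17 and 6.33 in siControl. HLA-F was lowest, at no more than 0.165 in any library.

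**Figure D5:**
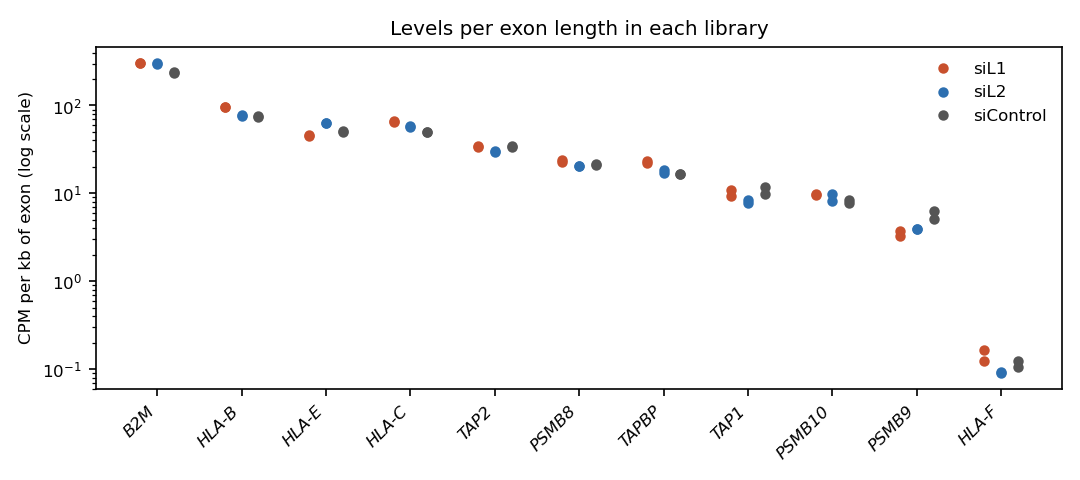
CPM per kilobase of exon (y axis, log scale) for the 9 genes with PSMB8 and PSMB10, 1 point per library, coloured by siL1, siL2 and siControl. B2M lies at 233 to 308 and HLA-F at no more than 0.165. On this length-scaled axis HLA-C and HLA-E exchange places between siL1 and siL2.

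Across the 6 libraries, the genes with the profiles most like B2M were C4orf32, SPPL2A and SNRNP27, with Pearson r of 0.9994, 0.9992 and 0.9981 in log2 CPM among 10447 genes. For TAP1 they were NBAS, KIF1C and AARS2 (r of 0.9965, 0.9936 and 0.9924), and for PSMB9 PRPF6, HYLS1 and UTP11L (0.9965, 0.9920 and 0.9915). These values rest on 3 groups of libraries and describe likeness of shape only, since SPPL2A, for example, had a log2 change of 0.50 with siL1 and 0.46 with siL2.

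In the authors' deposited table the member folds over siControl were close to these. There B2M stood at 1.29 with siL1 and 1.26 with siL2 (adjusted p = 6.15e-11 and 8.50e-09), TAPBP at 1.37 and 1.07, and HLA-E at 0.915 (adjusted p = 0.133) and 1.25 (adjusted p = 3.89e-06). In the authors' deposited table PSMB9 stood at 0.615 (adjusted p = 0.00978) and 0.681 (adjusted p = 0.0404), and TAP1 at 0.753 with siL2 (adjusted p = 0.0366). The fall of HLA-E with siL1 was the member call that their table did not share at an adjusted p of 0.05.

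Several members share exon bases with neighbours in GENCODE release 29, and the strand setting of the counting is not given in the sources used here. HLA-F shares 535 of 4342 exon bases with HLA-F-AS1 on the other strand, and TAP1 456 of 4805 with PSMB8-AS1. PSMB9 shares 139 of 3072 exon bases with PSMB8 on the other strand and 174 with PSMB8-AS1 on its own. TAP2 shares 2064 of 6390 with AL669918.1, a gene model on its own strand. HLA-B and HLA-C share 35 exon bases on the same strand. HLA-F-AS1 and PSMB8 were in the count table by these symbols, and PSMB8-AS1 and AL669918.1 were not. The part of these overlaps in the counts was not tested.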

How the data were processed

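RNA-seq of MDA-MB231 cells gave 6 libraries, 2 each for siL1, siL2 and siControl, grouped by the labels. Reads were aligned with TopHat 1.3.3 to hg19, counted with HTSeq and compared with DESeq, per the submitters' processing notes. Annotation release, strand setting and treatment of multiply matching reads are not given in the sources used here. The deposited table held raw read counts per gene symbol without normalization. Beside the counts stood the authors' own linear fold (ratio) of siL1 and of siL2 over siControl, with the authors' adjusted p-values. Library totals were 22047738 to 26765079. CPM used the raw library totals.

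Counts were tested in R 4.3.3 with edgeR 4.0.16: filterByExpr by group (13322 genes tested, 10046 left out), TMM scaling, and glmQLFit and glmQLFTest over all 6 libraries with group as the only term, leaving 3 residual degrees of freedom. Tests were two-sided with Benjamini-Hochberg adjustment over all genes tested and a threshold of 0.05. SDs are over the CPM of a group's 2 libraries, and an SE belongs to a fitted log2 change. The labels do not say that libraries came from separate cultures, so p-values measure the spread between these libraries, which may be technical. Procedures were tested on simulated data.

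Named genes are the 9 members, KDM1A, up to 4 genes per list with the smallest p in each comparison with siControl, and some named in advance (such as PSMB8 and NLRC5), of which some, and a sum that needs them, are not reported here. Members and lists were chosen with earlier results of these data known. RFX5, RFXANK, NFYA, NFYC and ULBP2 are given beside named genes of their complex or family. They were not among the other named genes counted under the alternatives. Alternatives were DESeq2 1.42.0, limma 3.58.1 (voom), other scalings and filters, a replicate block, fitting only the groups compared and leaving out each library. Further ones were summing class I heavy chains and, chosen after seeing the data, summing the 4 among the members. Promoters were matched by symbol to RefSeq (GRCh38.p14), with a window for 8 of 9 members; HLA-E is named only. Exon lengths and overlaps are from GENCODE release 29 on GRCh38, which is not the build of the counts.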

Additional observations from a re-analysis of the deposited data

Results flagged for a closer look

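The direct test of siL2 against siL1 called 6 of the 9 genes, where 23.2% of all genes tested were higher with siL2 and 23.7% lower. HLA-E was higher with siL2, at a log2 difference of 0.46. TAPBP (-0.35), HLA-B (-0.34), TAP1 (-0.32), TAP2 (-0.22) and HLA-C (-0.19) were lower with siL2 than with siL1. KDM1A itself differed at -0.66, and its part in these differences was not tested. HLA-F, B2M and PSMB9 did not pass this test, which does not show that the siRNAs act alike on them.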

How the results depend on the processing

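For KDM1A and the 9 members, 438 of 450 values under the alternatives kept direction and call, 8 kept direction and lost the call, and 4 reversed. Those that reversed were near 0 and did not pass the test: leaving out each library in turn gave TAP1 with siL1 a log2 change of -0.21 to 0.05 (0.0451 without siControl replicate 1, 0.0188 without siL1 replicate 2), and HLA-B with siL2 -0.0044 to 0.0309 (-0.0026 without siControl replicate 2). Members falling with siL1 numbered 1 with DESeq2 and 1 to 2 on leaving out a library, as HLA-E lost its call; members rising numbered 4 to 4. With siL2 3 to 3 rose and 2 to 3 fell, and between the siRNAs 1 to 1 and 4 to 5. Over all genes, leaving out a library gave 2644 to 3297 higher and 2765 to 3443 lower with siL1, 2418 to 2987 and 2506 to 3074 with siL2, and 2427 to 3097 and 2475 to 3137 for siL2 over siL1. Of the other named genes, leaving out a library turned round the siL1 change of MICB (-0.13 to 0.0149), MR1 (-0.27 to 0.59) and IRF9 (-0.0348 to 0.14), and the siL2 change of PSMB10 (-0.0064 to 0.27) and ERAP1 (-0.0089 to 0.21), none of which passed the test with all libraries. In all, 888 of 928 values of other named genes kept direction and call.

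Replicate numbers are shared by the groups, but only 2 of them exist and no label says what they pair. Deviations of same-numbered libraries correlated at 0.141 (siL1 and siControl), 0.198 (siL2 and siControl) and 0.133 (siL2 and siL1). With a replicate block, 3877 genes were higher and 4159 lower with siL1, 3724 and 3886 with siL2, and 3833 and 3867 for siL2 over siL1, and the member calls numbered 4 and 2, 3 and 3, and 1 and 5 as before. Of the other named genes, the block brought PSMB8 (adjusted p = 0.0241), PSMB10 (0.0120), STAT2 (0.0145) and NLRC5 (0.0130) with siL1, and NLRC5 (0.0362) and IFNGR1 (0.0419) with siL2, past the threshold.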

Other observations

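The class I pseudogenes HLA-H and HLA-J varied more between libraries of 1 group than the expressed heavy chains did. HLA-J had 16 and 65 counts with siL1 and 16 and 57 counts with siL2, against 15 and 9 counts in siControl. HLA-H had 274 and 178 counts with siL1 and 250 and 159 counts with siL2, against 130 and 196 counts in siControl. Windows of 50 bases found in another class I gene made up 22.3% of HLA-H and 0.699% of HLA-J. No change of either pseudogene passed the test. CIITA, the master activator of the class II genes, had 0 counts in 5 of the 6 libraries.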
